A study of Mus musculus with 4 samples.

Results

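The regions described here were peaks of accessible chromatin that lay between genes and were listed in both Zeb1-knockdown libraries and in neither control library. They came from ATAC-seq, in which a transposase cuts accessible DNA and leaves sequencing adapters behind, so that stretches with many cuts are called as peaks. The 4 libraries were made from endothelial cells sorted by FACS from retinas of C57BL/6 mice titled P16, with 2000 cells each. The control group had 2 libraries with the genotype label control, and the Zeb1-CKO group had 2 libraries with the genotype label Zeb1 knockdown. The labels name no Cre driver or allele and leave unsaid whether replicates were separate animals or pools, so any spread between them may be technical.

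Members were selected on the peak calls themselves. Peaks of the 4 lists on the 19 autosomes and X were merged where they overlapped or touched, and a region was kept if both knockdown lists and neither control list had a peak in it. It also had to lie outside every protein-coding gene body and more than 1 kb from any end of a protein-coding or microRNA gene. Of 25263 merged regions, 6983 lay between genes, and 798 of these (11.4%) were members. Because the peak calls chose them, their presence in the knockdown libraries and absence from the controls is a description and carries no test.

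Zeb1 is a zinc-finger transcription factor that binds E2-box sequences and represses epithelial genes, and it is best known for its role in the epithelial-mesenchymal transition. Zeb1 and the microRNAs of the miR-200 family repress each other, the microRNAs by targeting Zeb1 messenger RNA and Zeb1 by acting on their promoters. Accessible regions between genes are often enhancers, promoters of noncoding transcripts or sites bound by insulator proteins, and the gene nearest to one is not always the gene it acts on.

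The lists of the 4 libraries were unequal, which bears on every count below. Control replicate 1 had the shortest list, with 7608 peaks, and the others had 13672 to 19886. It also stood apart in what it held: 1051 of its 1814 regions between genes were in no other list, against 672 of 2570 for control replicate 2 and 383 of 2669 for Zeb1-CKO replicate 1. Zeb1-CKO replicate 2 had the longest list and held 2020 of its 4686 regions alone. Read depth is not known, and too few reads at a site would also leave it without a peak. The lists hold no direct check of the loss of Zeb1. In the order control replicates 1 and 2, then Zeb1-CKO replicates 1 and 2, a peak within 1 kb of a gene end was listed for 6, 13, 14 and 17 of 30 endothelial identity genes (20%, 43.3%, 46.7% and 56.7%). Over all protein-coding genes the shares were 22%, 38.5%, 39.5% and 45.2%, so the endothelial share was slightly below that of all genes in control replicate 1 and moderately above it in the others, and does not by itself establish the cell type. Of 28 photoreceptor markers, 2, 12, 2 and 10 had such a peak in the same order (7.14%, 42.9%, 7.14% and 35.7%), above the share of all genes in control replicate 2 only.

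**Figure D1:**
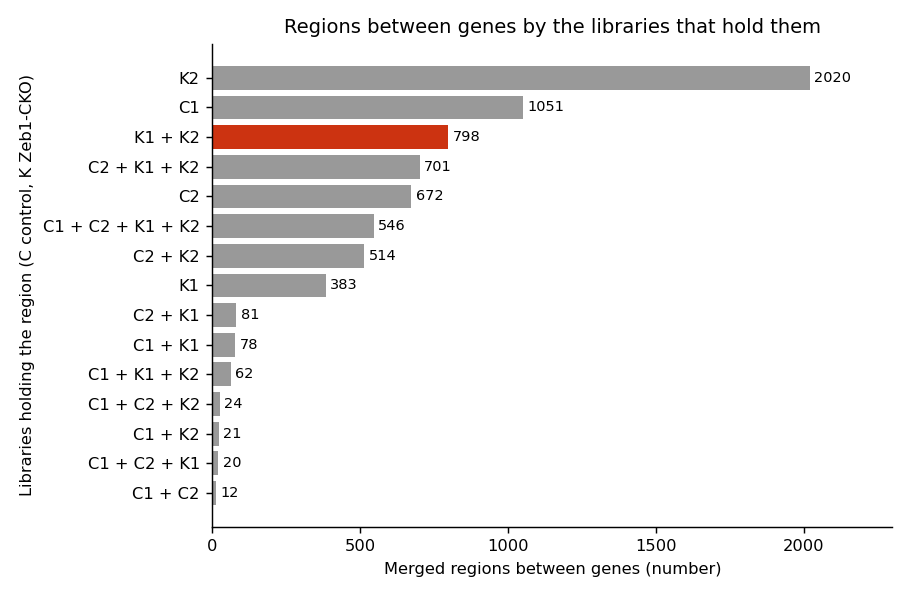
Number of merged regions between genes (x axis) for each combination of libraries holding them (y axis, C for control and K for Zeb1-CKO replicates); the members, held by K1 and K2 alone, are in red. The 798 members stood behind the 2020 regions of K2 alone and the 1051 of C1 alone, and 12 regions were held by both controls alone.

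The best-ranked member within 10 kb of a microRNA gene lay upstream of the Mir200b, Mir200a and Mir429 cluster, at chr4:156059344-156060145 on mm10. Its sequence is shown in part because the region contains the start of the noncoding gene Gm13648, whose body spans all 3 microRNA genes. The first window below is the RefSeq promoter window of Gm13648 (GRCm38.p6, chr4:156059753-156060052, minus strand), which lies wholly inside the member. The other windows also lie wholly inside members and start noncoding genes: Gm41144 (chr14:45543350-45543649, minus strand) and Gm33078 (chr11:57911859-57912158, plus strand) each hold 1 E2-box, and A330032P22Rik (chr10:3717908-3718207, plus strand) is given as a window without one. Each runs 5′ to 3′ from 250 bases before to 50 bases after the gene's start, and capitals mark the E2-box CAGGTG or its reverse complement.
Gm13648: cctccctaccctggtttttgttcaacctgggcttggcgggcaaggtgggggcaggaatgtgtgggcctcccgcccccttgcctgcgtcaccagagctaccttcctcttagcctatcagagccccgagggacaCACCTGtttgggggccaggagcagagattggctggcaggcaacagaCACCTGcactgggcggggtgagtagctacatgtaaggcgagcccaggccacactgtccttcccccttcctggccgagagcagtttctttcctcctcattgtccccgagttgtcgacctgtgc
Gm41144: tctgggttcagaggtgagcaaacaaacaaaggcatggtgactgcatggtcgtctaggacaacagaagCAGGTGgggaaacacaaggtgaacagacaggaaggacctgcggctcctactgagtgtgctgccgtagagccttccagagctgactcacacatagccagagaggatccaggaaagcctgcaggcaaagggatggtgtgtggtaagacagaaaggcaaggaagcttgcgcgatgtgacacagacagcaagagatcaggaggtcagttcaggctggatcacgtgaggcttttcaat
Gm33078: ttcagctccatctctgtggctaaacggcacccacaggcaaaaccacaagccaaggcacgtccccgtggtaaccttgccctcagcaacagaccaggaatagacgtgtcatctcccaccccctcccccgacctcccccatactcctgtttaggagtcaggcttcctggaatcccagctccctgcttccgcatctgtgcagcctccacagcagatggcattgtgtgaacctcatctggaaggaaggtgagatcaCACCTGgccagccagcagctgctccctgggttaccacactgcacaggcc
A330032P22Rik: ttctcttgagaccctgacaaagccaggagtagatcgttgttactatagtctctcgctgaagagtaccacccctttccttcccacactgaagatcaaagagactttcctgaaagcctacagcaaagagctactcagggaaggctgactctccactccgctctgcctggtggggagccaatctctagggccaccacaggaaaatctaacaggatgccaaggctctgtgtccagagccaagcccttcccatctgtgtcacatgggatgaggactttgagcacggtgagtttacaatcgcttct
In the Gm13648 window the E2-box stood at positions 133 and 179, counted from 1 at the window's 5′ end, both times as the reverse complement.

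The microRNAs of the cluster are shown for their seeds, bases 2 to 8, which pair with target messages and are in capitals. The 3p arms are printed: those of miR-200b and miR-429 share 1 seed, and that of miR-200a has another.
miR-200b-3p: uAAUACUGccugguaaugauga
miR-429-3p: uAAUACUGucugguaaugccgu
miR-200a-3p: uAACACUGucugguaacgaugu
The member lay 3594 bp from Mir200b, 4359 bp from Mir200a and 5357 bp from Mir429, on their upstream side. In Zeb1-CKO replicate 1 the peak had the authors' fold enrichment of 7.10 and a −log10 q of 16.7, and in replicate 2 a fold of 8.26 and a −log10 q of 17.7. Both peaks stood within the strongest 5.80% of their lists. The nearest control peaks were 49510 bp away in replicate 1 and 27353 bp away in replicate 2, so neither control list had a peak just beside the region. Control signal at the site too weak to be called as a peak was not examined. A second member, at chr4:156077672-156077938, lay in the same gap between Ttll10 and 9430015G10Rik, with fold enrichments of 6.00 and 4.83 in Zeb1-CKO replicates 1 and 2. That second region was of middling strength, at rank percentile 58.4 in the weaker of its lists, where 0 is the strongest peak and 100 the weakest.

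**Figure D2:**
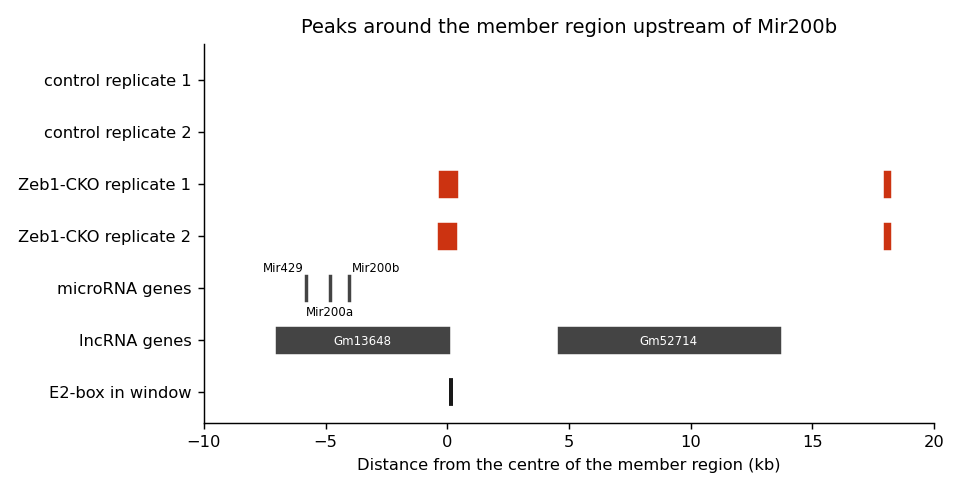
Peaks of the 4 libraries (upper rows), microRNA and noncoding genes, and E2-box matches in the Gm13648 window, by distance in kb from the centre of the member region upstream of Mir200b. Both Zeb1-CKO libraries have a peak at the centre and another about 18 kb to its right, and neither control library has a peak in the range drawn.

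In all, 9 members lay within 10 kb of 24 of the 1228 microRNA genes in the annotation. No such share is given here for other regions between genes, so the count is a description only. After the region near Mir200b, the best-ranked lay 1815 bp upstream of Mir3960 and 1899 bp upstream of Mir2861. It stood at percentile 42.5 in its weaker list, with control peaks 11956 and 1298 bp away in replicates 1 and 2. Another lay 1311 bp upstream of Mir17, the first gene of the Mir17 to Mir92-1 cluster, a set known for promoting cell proliferation. This region (chr14:115041900-115042360) had fold enrichments of 3.83 and 4.88, and control peaks lay only 1044 and 868 bp away, so it sat beside chromatin that was also called accessible in the controls. Other members lay 2071 bp downstream of Mirlet7b, next to Mirlet7c-2, and 2548 bp upstream of Mir322 in the Mir322, Mir503, Mir351, Mir542 and Mir450 cluster on X. Control peaks were at least 24964 bp from the first of these and at least 68654 bp from the second. Both were weak in a knockdown list, at percentiles 98.6 and 81.1. Examples of shared seeds among these microRNAs are shown: the 5p arms of miR-17 and miR-20a share 1, the 3p arms of miR-19a and miR-19b another, and the 5p arms of let-7b and let-7c a further one.
miR-17-5p: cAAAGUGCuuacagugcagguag
miR-20a-5p: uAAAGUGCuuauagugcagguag
miR-19a-3p: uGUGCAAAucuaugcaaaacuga
miR-19b-3p: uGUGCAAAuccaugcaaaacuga
let-7b-5p: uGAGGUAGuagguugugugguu
let-7c-5p: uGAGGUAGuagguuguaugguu
miR-322-5p: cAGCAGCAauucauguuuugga
The last is given for Mir322, the gene of its cluster nearest to the member.

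Apart from the region upstream of Mir200b, the best-ranked members lay near genes of varied function. The first was on X at chrX:4899268-4899538, 52597 bp from Btbd35f27, a member of a multicopy gene family, with fold enrichments of 19.3 and 14.8. Reads from near-identical copies may not be placed uniquely, and the authors' treatment of such reads is not stated in what was used here. The next lay 1685 bp upstream of Hrh2, the histamine H2 receptor, with folds of 14.3 and 11.8. These and the Mir200b region were the only 3 members in the strongest 10% of both lists.

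Rank 4 was held by a region 21592 bp upstream of Ifng, which encodes the cytokine interferon gamma (chr10:118419036-118419454), with folds of 7.76 and 8.96. The remaining 8 of the 12 best-ranked members had as nearest genes Tshz1, Slc4a1ap, Rasa2, Gm46617, Slc16a11, Dnase2b, Egflam and S100a11. Tshz1, a zinc-finger transcription factor, lay 486071 bp away, and Egflam, which encodes the matrix protein pikachurin, lay 198605 bp away. The region nearest to Rasa2, a Ras GTPase-activating protein, was 18337 bp upstream of it, and that nearest to S100a11, a calcium-binding protein, was 13768 bp upstream. The closest of the 12 to a gene was the region 1369 bp downstream of Dnase2b. In 11 of the 12 cases no control peak lay within 10 kb, the exception being the region nearest to Slc4a1ap, with a peak of control replicate 2 at 5406 bp. Of these 12 nearest genes, 6 had no gene-end peak in any library, Tshz1 had one in all 4, and Gm46617 had one in the knockdown libraries only.

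Most members were weaker than these. The median fold enrichment was 4.32 in Zeb1-CKO replicate 1 and 5.03 in replicate 2, from lowest values of 2.48 and 3.06. All peaks between genes in these libraries had median folds of 4.35 and 4.68, so the members were near them in replicate 1 and above them in replicate 2. On the rank scale the members' medians were 65.4 and 50.1, whereas regions between genes held by all 4 libraries had medians of 26.9 and 22.2. A −log10 q of at least 3 was reached by 460 members in replicate 1, by 558 in replicate 2 and by 356 in both. Only 25 members were in the strongest 25% of both lists, and 361 were in the weakest 25% of at least 1. The order of the members in one list followed that in the other loosely, with a Spearman rho of 0.420 across the 798 regions, against 0.745 across the 546 regions held by all 4. These regions share libraries and are not replicates, so the correlations are descriptions. In 602 members the overlap of the 2 knockdown peaks covered at least 50% of the region.

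**Figure D3:**
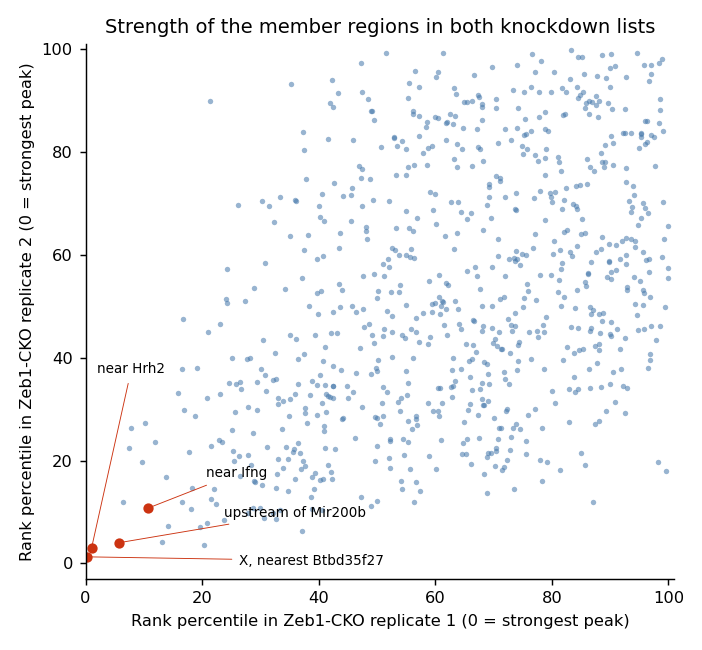
Rank percentile of each of the 798 members in Zeb1-CKO replicate 1 (x axis) and replicate 2 (y axis), with 0 as the strongest peak of a list; red points are the 4 best-ranked members. The medians are 65.4 and 50.1, and few points are near the lower left corner, where both peaks are strong.

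Members lay at a wide range of distances from genes. The width of the merged members ran from 206 to 1714 bp with a median of 433 bp, and regions held by all 4 libraries had a median of 612.5 bp. Merging peaks of more lists can only widen a region, so these widths are not directly comparable. The members' peaks covered a median of 335.5 bp in Zeb1-CKO replicate 1 and 365.5 bp in replicate 2. All peaks between genes in those libraries had median widths of 369 and 320 bp. The widest lay 3065 bp from Vxn, at chr1:9630207-9631920, and its peak covered 221 bp in Zeb1-CKO replicate 1 and 1637 bp in replicate 2. The median distance to the nearest end of a protein-coding gene was 21565 bp, with quartiles of 8913 and 59654.5 bp. Within 10 kb of such an end were 223 members (27.9%), and 128 (16%) were more than 100 kb away. Regions held by all 4 libraries lay nearer, with a median of 17678 bp and 35.9% within 10 kb. Regions held by all libraries but control replicate 1 fell between the others, with a median width of 519 bp and a median distance of 19109 bp.

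Between genes did not mean outside all transcripts. The bodies of long noncoding RNA genes overlapped 217 members (27.2%) at least in part, and 95 (11.9%) lay within 1 kb of an end of such a gene. Of the regions held by all 4 libraries, 31.7% overlapped such bodies and 23.1% were near such ends. A strand was known for the nearest protein-coding gene of 633 members, and 321 of these (50.7%) lay on its upstream side. Just outside the 1 kb limit were members nearest to Cd300lg at 1055 bp, Mef2d at 1085 bp and Hilpda at 1088 bp, and just inside it, and so no members, were regions nearest to Fosb at 943 bp, Trim72 at 939 bp and Fnbp1l at 927 bp. For the regions near Mef2d and Hilpda, a control peak was within 1349 bp or less in both controls.

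Control chromatin called accessible was often in the wider neighbourhood. A control peak lay within 5 kb of 81 members (10.2%), within 10 kb of 177 (22.2%) and within 50 kb of 535 (67.0%). For knockdown-only regions inside gene bodies the shares were 14.5%, 27.5% and 74.4%. By chromosome, the members made up from 6.82% of the regions between genes on X, 12 of 176, to 14.1% on chromosome 1, 72 of 512.

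The share of knockdown-only regions between genes was near that inside gene bodies. Of 8745 regions in gene bodies 988 were knockdown-only (11.3%), and of 9535 regions at gene ends 769 (8.07%), beside the 11.4% between genes. The percent of each library's peaks lying between genes was also compared, a measure that did not choose the members. It rests on the same peak calls, though, and the members' peaks count toward the knockdown libraries only. The percent was 24.0% and 18.9% in control replicates 1 and 2 and 19.6% and 23.7% in Zeb1-CKO replicates 1 and 2. The groups overlapped fully, with means of 21.5% ± 3.58 (SD, n = 2) and 21.6% ± 2.84 (SD, n = 2). The difference, knockdown minus control, was 0.178 percentage points (two-sided exact permutation test, p = 1, with 0.33 the smallest p that 2 against 2 allows). Within replicate numbers the difference was −4.36 points for number 1 and 4.72 points for number 2, opposite in sign.

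Members were mostly spread singly. Among neighbouring members, 9 pairs were within 5 kb of each other and 77 within 50 kb. Of the gaps between protein-coding genes that held any, 594 held 1 member, 71 held 2, 14 held 3 and 5 held 4. The gaps with 4 were those from Gap43 to Zbtb20 (535037 bp), Map2k6 to Kcnj16 (442510 bp), Smndc1 to Dusp5 (138443 bp), Ly86 to Rreb1 (359345 bp) and Itga3 to Dlx3 (43272 bp). The last was the shortest by far, and its members lay 5954, 9021 and 20142 bp upstream of the integrin gene Itga3 and 15527 bp from Dlx3, a homeobox gene. Control replicate 2 had peaks 2331 to 7718 bp from these 4 regions, whereas the nearest peaks of control replicate 1 were 41218 to 62642 bp away. Between Gap43, which encodes a growth cone protein, and Zbtb20, a zinc-finger repressor, the 4 members were the only regions between the first and the last of them. There the nearest control peak was more than 197 kb away from each. Between Smndc1 and Dusp5, a phosphatase of MAP kinases, the stretch from first to last member held 8 regions, of which 4 were no members.

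The genes nearest to members were read against lists of endothelial, epithelial and other cell type genes. A list gene was counted if it was the nearest protein-coding gene of a member with an end within 100 kb. Over the whole annotation 619 of 21627 genes (2.86%) met this, 572 with 1 member, 43 with 2 and 4 with 3. The lists' counts are descriptions without a test.

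Epithelial genes known as repressed by Zeb1 gave 2 of 32, Cldn4 and Epcam. Cldn4 encodes a claudin of tight junctions, and its member (chr5:134965937-134966753) lay 19003 bp upstream with folds of 4.14 and 4.33. This region was near the middle of the 39279 bp gap from Cldn4 to Cldn3, and so almost as close to Cldn3. Epcam encodes an epithelial adhesion molecule, and its member (chr17:87609745-87610155) lay 25824 bp upstream with folds of 4.25 and 7.0. Cldn4 and Epcam also had a gene-end peak in the knockdown libraries and in neither control, while the direction of the distal calls was set by the selection. Over the whole list, a gene-end peak was listed for 3 and 6 of the 32 genes in control replicates 1 and 2. In Zeb1-CKO replicates 1 and 2 it was listed for 21 and 24. Over all protein-coding genes the gene-end shares were 22%, 38.5%, 39.5% and 45.2% in the same order. In control replicates 1 and 2, peaks between genes were nearest to 1 and 6 of the 32, and in Zeb1-CKO replicates 1 and 2 to 6 and 12. Over all genes those shares were 5.17%, 8.05%, 8.21% and 12.7%. Cldn4 and Epcam were each also the nearest gene of another region between genes that control replicate 2 held. Without control replicate 2 the list's count was 4, where the share of all genes rose from 2.86% to 5.09%, and with lists of equal length it was 1, where that of all genes fell to 0.892%.

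Among 30 endothelial identity genes, 7 had a member: Pecam1, Kdr, Erg, Ets1, Ets2, Egfl7 and Cd34. Ets2, a transcription factor of the ETS family, had the best-ranked of these, 19710 bp upstream of the gene with folds of 5.41 and 6.97. Cd34, a surface sialomucin of vessels and progenitors, had members 10422 and 59077 bp upstream. Erg, the ETS factor that maintains endothelial identity, had members 13860 and 16912 bp downstream, both weak, with folds from 3.34 to 4.55. The member nearest to Kdr, the main VEGF receptor of endothelial cells, lay 96792 bp downstream. Pecam1, which encodes an adhesion molecule of endothelial junctions, had a member 5524 bp away with a fold of 3.83 in each library. At the gene ends themselves, Cd34 was marked by a peak in every library, Kdr and Ets2 in all but control replicate 1, and the other 4 in none. Of the 7 genes, 4 were also nearest to a region between genes held by a control. Peaks between genes were nearest to 9 and 14 of the 30 in control replicates 1 and 2. In Zeb1-CKO replicates 1 and 2 the counts were 15 and 20. Over all genes the shares were 5.17%, 8.05%, 8.21% and 12.7% in that order, so the list stood above all genes in the controls too.

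AP-1 and stress genes, immediate early genes that respond within minutes to many stimuli including tissue dissociation, had the highest share, 7 of 22. They were Fos, Jun, Atf3, Klf6, Dusp1, Myc and Btg2. Klf6 had members 23808 bp upstream and 42861 bp downstream, and the member of Fos lay 43502 bp upstream with folds of 5.63 and 4.42. Dusp1, a MAP kinase phosphatase, and Btg2, an antiproliferative gene, had members 7689 and 7450 bp downstream. At all of these genes but Myc, every library listed a gene-end peak, and 6 of the 7 were also nearest to a region between genes held by a control. Of the 22, 10 and 15 were nearest to a peak between genes in control replicates 1 and 2, and 14 and 15 in Zeb1-CKO replicates 1 and 2. The count of genes with a member was 4 with a −log10 q of at least 3 and 1 with equal lists, where all genes had 1.96% and 0.892%.

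The other endothelial lists had fewer. Sprouting and tip cell genes gave 3 of 24: Kdr, Cd34 and Apln, the apelin peptide of tip cells, whose member was 9302 bp upstream. Barrier and Wnt genes gave 3 of 30: Ctnnb1, the Wnt effector beta-catenin, at 19711 bp, the forkhead gene Foxq1 at 6764 bp, and the glucose transporter Slc2a1 at 6004 bp. Mesenchymal and TGF-beta genes gave 2 of 30, the collagen gene Col1a1 at 6869 bp and the matrix protease Mmp14 at 6653 bp. Notch and arteriovenous genes gave 1 of 26, the Notch target Nrarp, whose member 2266 bp downstream was among the weakest at percentile 98.5. These counts moved with the lists used. With a −log10 q of at least 3 in all lists, 4 Notch and arteriovenous genes had such a region, and 3 sprouting, 2 barrier and 1 mesenchymal gene did, while the share of all genes fell to 1.96%. Without control replicate 2 the counts were 4 Notch, 5 sprouting, 6 barrier and 6 mesenchymal genes, beside 5.09% of all genes. Without control replicate 1 the mesenchymal count was 4, beside 3.04% of all genes.

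Of the lists for other retinal cells, photoreceptor markers (0 of 28), inner retinal neuron markers (0 of 26) and leukocyte and microglia markers (0 of 18) had no gene that was the nearest of a member within 100 kb. A member needs a peak in Zeb1-CKO replicate 1, whose peaks between genes were nearest to 1, 1 and 2 genes of these lists. With that, and with 2.86% over all genes, counts of 0 say little about the members. With any gene end within 100 kb counted, which 9.59% of all genes met, 3 photoreceptor, 2 inner retinal neuron and 0 leukocyte genes had a member. Muller glia and astrocyte markers gave 1 of 18, the glutamate transporter Slc1a3, and pericyte and smooth muscle markers 1 of 16, the channel Kcnj8. Because the region near Ifng ranked high, a list of 32 T and NK lymphocyte genes was added after the values were seen, and 5 of them had a member: Ifng, Ctla4, Cd28, Cd2 and Rac2. Cd2, an adhesion receptor of T cells, had members 16317 and 34483 bp away, and the region of Ctla4, an inhibitory T cell receptor, lay 45643 bp upstream with folds of 5.07 and 7.04. None of these 5 genes had a gene-end peak in any library. Over the whole list, gene-end peaks were listed for 0 genes in either control and for 2 (6.25%) in each knockdown library. Of all protein-coding genes, 22% and 38.5% had one in control replicates 1 and 2, and 39.5% and 45.2% in Zeb1-CKO replicates 1 and 2. The list was thus below all genes in every library. Peaks between genes were nearest to 5 and 4 of the 32 in the controls, and to 7 in each knockdown library. Of all genes, 5.17% and 8.05% were nearest to such a peak in control replicates 1 and 2. In Zeb1-CKO replicates 1 and 2 the shares of all genes were 8.21% and 12.7%, so they too were higher than in the controls. The part of other cell types in these counts was not tested.

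**Figure D4:**
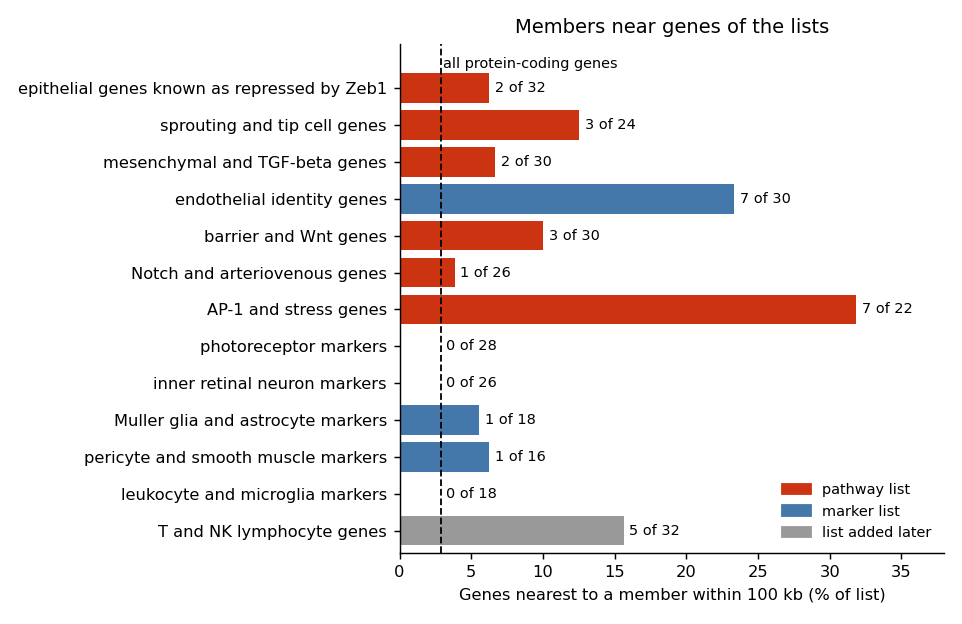
Percent of the genes of each list that were the nearest gene of a member within 100 kb (x axis, with the counts at the bars); the dashed line marks the 2.86% of all protein-coding genes. AP-1 and stress genes (7 of 22) and endothelial identity genes (7 of 30) had the highest shares, and 3 marker lists had 0.

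Genes nearest to members had gene-end peaks more often than genes at large, in controls as well as in knockdown libraries. Gene-end peaks were listed for 177 and 316 of the 619 in control replicates 1 and 2 (28.6% and 51.1%), and for 319 and 364 in Zeb1-CKO replicates 1 and 2 (51.5% and 58.8%). Each of these shares was above that of all protein-coding genes, given above. All 4 libraries had such a peak at 175 of the 619 genes (28.3%), against 20.9% of all genes. Regions between genes held by a control were likewise common there: 212 of the 619 genes (34.2%) were nearest to one within 100 kb, against 10.6% of all genes.

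Knockdown-only gene ends were found at 32 of the 619 genes (5.17%) and at 821 of all genes (3.8%). Among only the genes with a gene-end peak in some library, the shares were closer, 8.44% and 7.82%. By rank of their members, the first of the 32 were Gm46617, the kinase gene Rps6ka1 and Gm44064, and Cldn4, Epcam and Col1a1 were also among them.

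**Figure D5:**
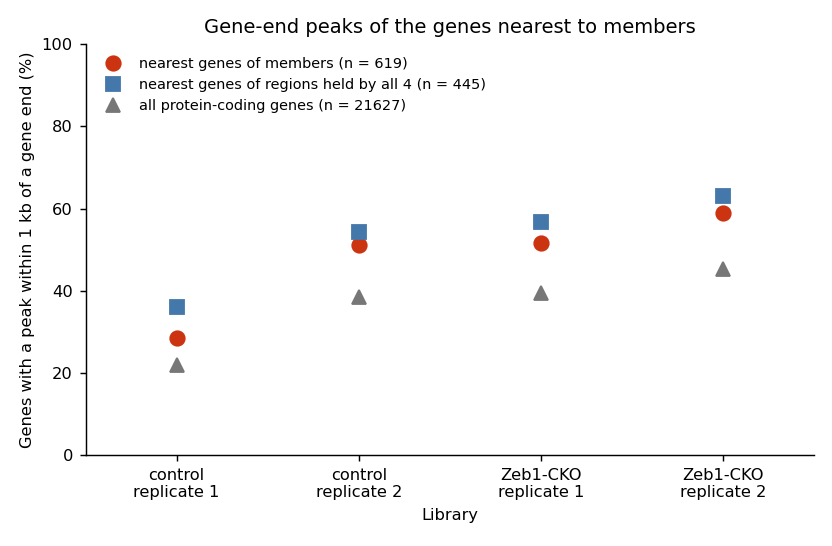
Percent of genes with a peak within 1 kb of a gene end (y axis) in each library (x axis), for the 619 genes nearest to members, the 445 genes nearest to regions held by all 4 libraries, and all 21627 protein-coding genes. In each library the genes nearest to members lie above all genes and below the genes nearest to regions held by all 4.

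Sequence could be read where a promoter window of the RefSeq table overlapped a member. This was so for 34 members, with 40 windows of 36 noncoding genes, and 11 windows lay wholly inside. The E2-box CAGGTG was found on either strand in 13 of the 40 (32.5%) and in 5 of the 11 (45.5%). It was present in 20.3% of all 32619 promoter windows of the same length, in 21.1% of those of noncoding genes, in 18.6% of windows overlapping regions between genes held by all 4 libraries, and in 27.9% of windows overlapping knockdown-only regions at gene ends. For windows wholly inside those last 2 kinds of region the shares were 14% and 31%. Some windows overlapped a member by few bases, that of Gm41584 by 29, so a match may lie outside the member. Windows can also overlap each other, as those of Gm41144 and 4930527F14Rik did, so that 1 site counts more than once. The AP-1 word TGANTCA was found in 17.5% of the 40, in 7.85% of all windows and in 9.31% of those of noncoding genes. For the KLF/Sp word GGGCGG the direction turned with the set compared: 27.5% of the 40 held it, below the 35.9% of all windows and above the 16.3% of noncoding genes. With 40 windows, 1 window is worth 2.5 percentage points, and a match is a description of the letters and not of binding.

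The other words are given as the share of the 40 windows, then of the windows of all noncoding genes, then of all windows. The shares were 30%, 21.9% and 23.9% for the ETS word GGAAGT, 22.5%, 18.9% and 16% for the TCF/LEF word TCAAAG, and 17.5%, 14% and 11.2% for the GATA word AGATAA. Nearly equal to the noncoding genes were the RUNX word TGTGGT with 20%, 20.1% and 16.6%, the TEAD word GGAATG with 17.5%, 16.6% and 14.6%, and the NFI word TTGGCA with 17.5%, 16% and 14.1%. The SOX word ACAATG had 12.5%, 15.4% and 12.2%, the CTCF core AGGGGGC 5%, 6.39% and 10.7%, and the CRX/OTX word GGATTA 2.5%, 8.23% and 7.04%. The forkhead word GTAAACA and the Grainyhead word AACCNGTT were in 0 of the 40, against 4.84% and 2.32% of the windows of noncoding genes and 3.67% and 2.1% of all windows. All words were searched on both strands, and none contains another. The sets differed in base composition: median GC content was 51.7% with 6 CpG in the 40, 48.3% with 4 CpG in the windows of noncoding genes, and 59.2% with 17 CpG in those overlapping regions held by all 4 libraries.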

How the data were processed

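The members and the gene lists were chosen with earlier results of these data known. The authors deposited 1 list of broad peaks per library on mm10, not pooled. Every deposited peak carries a score, a fold enrichment (peak signal as a ratio to background), a −log10 p and a −log10 q. The submitters' processing notes name MACS2 2.1.1, a peak caller, and beside it bedtools 2.26.0, Bowtie2 2.3.2, SAMtools 1.3, Picard 2.9.2 and Trimmomatic 0.36, with no settings. A shift of reads for the transposase is not stated there. Fold and −log10 q are the authors' values and were used only to describe, rank and filter peaks within a list.

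Peaks were merged and annotated in Python 3.11.15 with pandas 2.3.3 and numpy 2.4.6, and the functions were tested on simulated data. Gene ends came from a RefSeq table on GRCm38.p6, with 21627 protein-coding and 1228 microRNA genes; strand came from the RefSeq promoter table, which with the RefSeq microRNA table (40 mature sequences matched) supplied the sequences. The only test was a two-sided exact permutation test of the percent of peaks between genes.

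Named were the 12 members with the best weaker rank over both knockdown lists, members nearest to a list gene within 100 kb (up to 6 per list), the 5 gaps with most members, the widest member, and 3 regions on each side of the 1 kb limit. The 14 sequence words were searched in promoter windows only, since no genome sequence was used here; the search over whole regions and over central windows was not run. Marker list genes, gaps' neighbouring genes and the arms of microRNAs shown were named beside these.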

Additional observations from a re-analysis of the deposited data

How the results depend on the processing

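The count of 798 was 733 and 569 with limits of 3 and 10 kb from gene ends, 554 with every gene type counted, and 534 with a −log10 q of at least 3, of which 356 were among the 798. With lists of equal length, 7586 peaks each, it was 245, of which 162 were among the 798. With 50% of a region covered it was 804, and with peaks within 1 kb merged 792. Leaving out 1 library gave 860 to 2823: 860 without control replicate 1, 1498 without control replicate 2, 2823 without Zeb1-CKO replicate 1 and 1196 without Zeb1-CKO replicate 2, where fewer lists have to agree or to lack a peak.

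The difference in the percent of peaks between genes, 0.178 points, was 0.129 with a 3 kb limit, −0.469 with 10 kb, −0.235 with every gene type and −3.62 with equal lists, each with an exact permutation p of 1, and 3.28 with a −log10 q of at least 3 (exact permutation p = 0.33). Leaving out each library gave −2.35 to 2.71, with −2.35 without control replicate 2 and −1.83 without Zeb1-CKO replicate 2. With the replicate number as a block it was 0.178 (exact p = 1). The labels do not say what same-numbered libraries have in common. Control replicate 2 and Zeb1-CKO replicate 2 alone held 514 regions between genes, and the replicates numbered 1 alone held 78. Control replicate 2 with Zeb1-CKO replicate 1 alone held 81, and control replicate 1 with Zeb1-CKO replicate 2 alone held 21. The cause of this sharing and of the reversals in sign was not tested. Equal lists gave 3 endothelial identity genes and 2 lymphocyte genes with a member, and a −log10 q of at least 3 gave 5 and 3. With equal lists the sprouting, barrier, mesenchymal and Notch lists had 1, 1, 1 and 2 genes, and the glial and pericyte lists 0. Without control replicate 2 the inner neuron, pericyte and leukocyte lists had 1, 2 and 2. At any distance from the nearest gene, 5 sprouting, 3 Notch, 2 glial and 1 leukocyte genes had a member. With any gene end within 100 kb counted, 9.59% of all genes had a member, and the lists had 12 endothelial, 8 AP-1 and stress, 7 barrier, 7 lymphocyte, 6 Notch, 5 sprouting, 4 epithelial, 3 mesenchymal, 3 photoreceptor, 3 glial, 2 inner neuron, 2 pericyte and 0 leukocyte genes. The gene list counts with stricter or equal lists and without single controls, and those of wholly contained windows and of the lymphocyte list, were chosen after seeing the data. Read depth is unknown and limits what an absent peak means.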
